A study of Homo sapiens with 24 samples.

Results

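The core genes of the ATF4 stress response studied here were ATF4, ATF5, DDIT3, DDIT4, TRIB3, CHAC1, SESN2, ASNS, INHBE and CEBPB. They were chosen by name, and all 10 had a single row in each of the 4 comparison tables, out of 29639 genes. The libraries came from Rh30 cells, an alveolar rhabdomyosarcoma line, and RD cells, an embryonal rhabdomyosarcoma line. Cultures of either line were kept for 5 days with SGI-110 at 0.5 µM, with dasatinib, with SGI-110 plus dasatinib (the combination) or with DMSO, the solvent of both drugs. A separate dose for dasatinib is not given in the sources used here. SGI-110 (guadecitabine) is a prodrug of decitabine, an inhibitor of DNA methylation, and dasatinib is a kinase inhibitor whose targets include SRC and ABL. There were 3 libraries in each of the 8 groups, labelled as biological replicates. The tables compare treatments, leave the cell line unnamed and hold no value per library, so depth per library is unknown and the number of replicates that share a direction cannot be shown. The size of the standard errors is that of 3 libraries per treatment, so each value below is read as the response of 1 of the lines. A line is a single model of its tumour type. The labelled lineage was checked by its markers: in the authors' deposited table all 8 skeletal muscle lineage genes examined reached a mean normalised count of 100 or more (median 5433, MYOD1 at 5182), and all 6 immune markers stayed at or below 10.9. Of the markers of other cell types, 1 of 5 fibroblast genes found (COL1A1, 4122), 1 of 6 endothelial (PECAM1, 674), 2 of 6 epithelial (KRT18, 173, and CLDN4, 124) and 1 of 6 neural genes (OLIG2, 130) also reached 100 in the authors' deposited table, and their part in the results was not tested. In such bulk RNA, fewer cells expressing a gene and less of its RNA per cell cannot be told apart.

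Cells that lack amino acids, accumulate unfolded protein in the endoplasmic reticulum, suffer mitochondrial damage or sense double-stranded RNA phosphorylate the translation initiation factor eIF2. General translation then slows, while the ATF4 messenger is translated better because of short reading frames upstream of its coding sequence. ATF4 protein binds DNA together with C/EBP family partners and turns on genes for amino acid supply, redox balance, feedback on translation and, under lasting stress, cell death. Because the control of ATF4 itself is largely translational, a messenger level does not measure the protein. Messenger levels alone are reported here.

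The set was lower after SGI-110. Of the 10 genes 9 were past the threshold and lower than in DMSO, 1 (ATF5) was not past it, and none was higher. An adjusted p under 0.05 in the authors' deposited Wald test served as the threshold. Over all genes tested 17.1% were called lower in this comparison and 30.4% higher. Among well measured genes, here those whose mean normalised count is 100 or more, 34.9% were lower and 32.6% higher. All 10 members reach that mean over the 24 libraries, but CHAC1 does so only through the libraries outside the fit, and its reconstructed mean within the fit was 23.6. The median log2 fold change of the members was -1.49, against 0.21 over all genes tested and -0.02 over the 11759 well measured genes. Dasatinib alone split the set: 5 were lower (13.2% of all genes tested were called lower), 1 was higher (17.8% were called higher) and 4 were not past the threshold, with a median of -0.30. Among well measured genes 17.4% were lower and 27.4% higher with dasatinib. The dasatinib calls of ATF5, INHBE and CEBPB ended when fold changes were centred on all genes (adjusted p = 0.102, 0.0692 and 0.0607). With the combination 9 were lower and none higher, with a median of -1.42. Over all genes 17.6% were called lower and 29.8% higher in that comparison, and 33.8% and 34.4% of the well measured ones. These 3 comparisons share the same DMSO libraries.

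**Figure D1:**
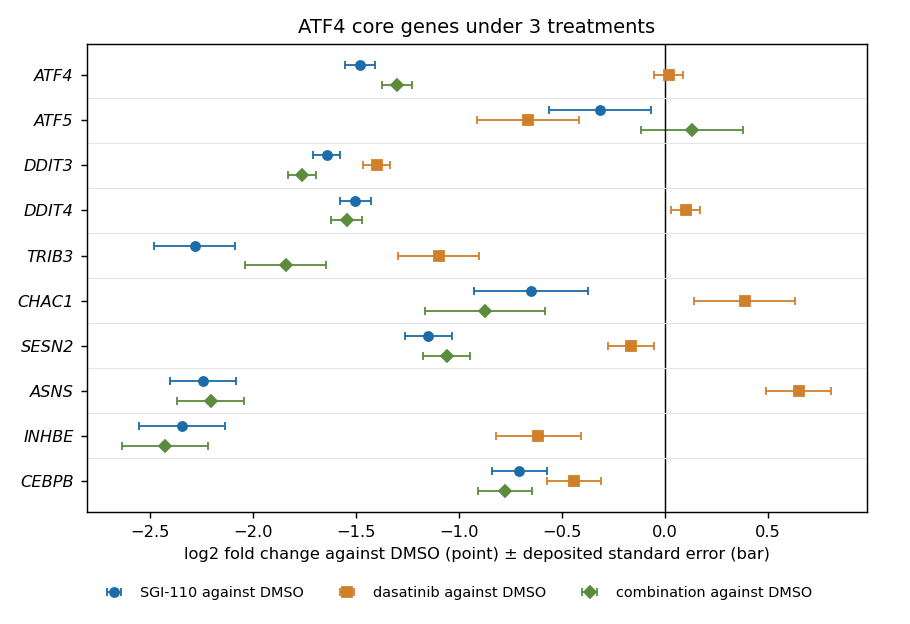
Log2 fold change against DMSO (horizontal axis) of each ATF4 core gene (rows) for SGI-110 (circles), dasatinib (squares) and the combination (diamonds), with the deposited standard error as bars. SGI-110 and combination values lie left of -0.6 for every gene but ATF5, while dasatinib values range from -1.40 (DDIT3) to 0.65 (ASNS).

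The mean count of each treatment was reconstructed from the standard errors and the fold changes. The standard errors set 1 scale per gene, and the ratios between treatments are the deposited fold changes. The levels are thus not a second measurement of the treatment differences. In the negative binomial fit behind such tables, the variance of a group's log mean is the reciprocal of its mean count plus the dispersion of the gene, divided by the number of libraries. The DMSO level solved from SGI-110 and DMSO and the one solved from the combination and dasatinib differed by 0.594% (DDIT3) to 6.74% (CHAC1) for 9 of the 10 genes. For ATF5 they differed by 26.4%, over the 25% allowed, so no level of ATF5 is given. Levels are normalised counts, not divided by gene length, and therefore compare treatments within a gene and not genes with each other. A level is given ± its standard error (n = 3 libraries), which comes from the deposited standard errors. It is a value of the fit and not a spread among replicates, and it leaves out the error of the reconstructed scale.

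Among the transcription factors, ATF4 and DDIT3 both fell with SGI-110, and DDIT3 fell with dasatinib as well. ATF4 (GRCh38, chromosome 22, 39519695 to 39522685) is the bZIP factor that gives the response its name. Its level was 3313 ± 119 with SGI-110, 9358 ± 329 with dasatinib, 3751 ± 134 with the combination and 9241 ± 325 with DMSO. Both groups with SGI-110 were low, and the dasatinib and DMSO levels lay within 1 standard error of each other. ATF4 fell 2.79-fold with SGI-110 (log2 fold change -1.48 ± 0.07, adjusted p = 3.00e-90) and 2.46-fold with the combination (-1.30 ± 0.07, adjusted p = 4.01e-70), by the authors' deposited table. The dasatinib value was 0.02 ± 0.07 (adjusted p = 0.925, 95% interval -0.12 to 0.16) in the authors' deposited table.

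DDIT3 (chromosome 12, 57516588 to 57521737), which encodes the C/EBP family factor CHOP that promotes death under lasting stress, was lower with every treatment. Its level was 5470 ± 179 with SGI-110, 6474 ± 211 with dasatinib, 5035 ± 165 with the combination and 17076 ± 549 with DMSO. DMSO was thus high alone, and all 3 treated groups were low. The fall was 3.12-fold with SGI-110 (-1.64 ± 0.07, adjusted p = 1.85e-133), 2.64-fold with dasatinib (-1.40 ± 0.07, adjusted p = 1.53e-96) and 3.39-fold with the combination (-1.76 ± 0.07, adjusted p = 4.31e-153), from the authors' deposited table. DDIT3 overlaps MARS, the cytosolic methionyl-tRNA synthetase gene, and MBD6 on the opposite strand. Whether the counting used the strand is not given in the sources used here, so shared reads cannot be told apart. In the authors' deposited table MARS, with the higher mean normalised count of the pair (17044, against 4448 for DDIT3), fell by 1.68 ± 0.06 with SGI-110 (adjusted p = 3.06e-148) and by 1.52 ± 0.06 with the combination (adjusted p = 4.46e-121), close to the values of DDIT3. Its dasatinib value was 0.07 ± 0.06 (adjusted p = 0.431), also from the authors' deposited table.

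CEBPB (chromosome 20, 50190734 to 50192689), a dimerisation partner of ATF4 and of CHOP, was also lower with every treatment. It stood at 418 ± 27 with SGI-110, 503 ± 33 with dasatinib, 399 ± 26 with the combination and 682 ± 44 with DMSO. It fell by 0.71 ± 0.13 (adjusted p = 4.45e-07), 0.44 ± 0.13 (adjusted p = 0.00379) and 0.78 ± 0.13 (adjusted p = 2.82e-08) on the log2 scale for SGI-110, dasatinib and the combination, by the authors' deposited table. An antisense transcript, CEBPB-AS1, overlaps it and had a mean normalised count of 23.4, against 390.1 for CEBPB, in the authors' deposited table. ATF5 (chromosome 19, 49928702 to 49933935), the bZIP factor that drives the mitochondrial unfolded protein response, was the exception to the fall with SGI-110, at -0.31 ± 0.25 (adjusted p = 0.314, 95% interval -0.80 to 0.17), in the authors' deposited table. With dasatinib it was lower by 0.67 ± 0.25 (adjusted p = 0.0261), and the combination value was 0.13 ± 0.25 (adjusted p = 0.709), in the authors' deposited table. ATF5 overlaps NUP62, a nuclear pore gene on the opposite strand with a mean normalised count of 1889, against 1296 for ATF5, in the authors' deposited table. As for DDIT3, shared reads cannot be told apart. The part of NUP62 in the values of ATF5 was not tested, nor was that of MBD6 in the values of DDIT3.

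The feedback genes and the inhibitors of mTORC1, the kinase complex that couples nutrients to protein synthesis, followed. TRIB3 (chromosome 20, 362835 to 397559), a pseudokinase that restrains AKT and ATF4, had 817 ± 79 normalised counts with SGI-110, 1853 ± 178 with dasatinib, 1108 ± 107 with the combination and 3969 ± 380 with DMSO. All 3 treated groups were low. The fall was 4.86-fold with SGI-110 (-2.28 ± 0.20, adjusted p = 1.15e-29), 2.14-fold with dasatinib (-1.10 ± 0.20, adjusted p = 2.57e-07) and 3.58-fold with the combination (-1.84 ± 0.20, adjusted p = 1.01e-19), in the authors' deposited table.

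DDIT4 (chromosome 10, 72273920 to 72276036), also called REDD1, inhibits mTORC1 through the TSC complex. It had 793 ± 30 normalised counts with SGI-110, 2408 ± 85 with dasatinib, 771 ± 30 with the combination and 2247 ± 80 with DMSO, the same split as ATF4. Its SGI-110 value was -1.50 ± 0.08 (adjusted p = 6.28e-86), its combination value -1.54 ± 0.08 (adjusted p = 6.88e-90) and its dasatinib value 0.10 ± 0.07 (adjusted p = 0.324) in the authors' deposited table. SESN2 (chromosome 1, 28259527 to 28282491) senses leucine and inhibits mTORC1 through the GATOR complexes. Its levels were 336 ± 19 with SGI-110, 666 ± 36 with dasatinib, 358 ± 21 with the combination and 746 ± 40 with DMSO. SESN2 was 2.22-fold lower with SGI-110 (-1.15 ± 0.11, adjusted p = 1.46e-22) and 2.08-fold lower with the combination (-1.06 ± 0.11, adjusted p = 2.47e-19), and stood at -0.16 ± 0.11 with dasatinib (adjusted p = 0.283), by the authors' deposited table.

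Among the enzyme genes, ASNS was the member that rose with dasatinib. ASNS (chromosome 7, 97852118 to 97872542) makes asparagine and is induced when amino acids are short. It had 510 ± 41 normalised counts with SGI-110, 3781 ± 292 with dasatinib, 523 ± 42 with the combination and 2410 ± 187 with DMSO. The rise with dasatinib was 1.57-fold (0.65 ± 0.16, adjusted p = 0.000277), and ASNS fell 4.73-fold with SGI-110 (-2.24 ± 0.16, adjusted p = 3.20e-42) and 4.61-fold with the combination (-2.21 ± 0.16, adjusted p = 7.10e-41), by the authors' deposited table. CHAC1 (chromosome 15, 40952962 to 40956519) degrades glutathione. It was scarce, at 17.3 ± 2.5 normalised counts with SGI-110, 35.4 ± 3.9 with dasatinib, 14.8 ± 2.3 with the combination and 27.1 ± 3.5 with DMSO. The fall with SGI-110 passed narrowly (-0.65 ± 0.28, adjusted p = 0.0413), the fall with the combination passed (-0.87 ± 0.29, adjusted p = 0.00712), and the dasatinib value was 0.39 ± 0.24 (adjusted p = 0.246) by the authors' deposited table. The SGI-110 call of CHAC1 ended when fold changes were centred on well measured genes (adjusted p = 0.0524).

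ATF4 and its C/EBP partners are known to bind a composite element. The promoter windows of these enzyme genes hold letters that match it, which describes the sequence and shows no binding, and they are printed for that reason beside the window of ATF4. Windows of 250 bases before to 50 bases after the start, from RefSeq (GRCh38.p14), were available for 9 of the 10 genes; INHBE was not in the table. Members were counted by gene, with up to 3 windows each, and the background by window, so these counts and shares are in unlike units. The 8-letter motif TGATGNAA was searched on both strands. It was found in the windows of 2 of the 9 genes, ASNS and CHAC1, and in 3.62% of all 35093 promoter windows. Its first letters, TGATG, stood in 32.9% of all windows and in the same 2 genes. The ASNS match (TGATGAAA) begins 68 bases before the start in the first ASNS window, and the second ASNS window holds none. The CHAC1 match (TGATGCAA on the opposite strand, so that its reverse complement is read here) lies 209 bases before the start. The motif TATAAA was found for ATF4 and CEBPB, and in 11.5% of all windows. The ER stress element, searched by its usual consensus on both strands, was in no member's window and in 0.0769% of all windows. Capitals mark TGATGNAA in ASNS (chr7:97872359-97872658, minus strand) and CHAC1 (chr15:40953221-40953520, plus strand) and TATAAA in ATF4 (chr22:39520309-39520608, plus strand), each written 5′ to 3′ along the gene.
ASNS: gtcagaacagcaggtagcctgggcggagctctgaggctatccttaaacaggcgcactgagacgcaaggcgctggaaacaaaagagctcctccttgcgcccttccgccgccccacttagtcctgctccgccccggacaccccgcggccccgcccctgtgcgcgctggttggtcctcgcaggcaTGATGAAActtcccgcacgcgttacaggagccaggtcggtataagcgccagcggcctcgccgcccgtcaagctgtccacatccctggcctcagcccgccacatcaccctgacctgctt
CHAC1: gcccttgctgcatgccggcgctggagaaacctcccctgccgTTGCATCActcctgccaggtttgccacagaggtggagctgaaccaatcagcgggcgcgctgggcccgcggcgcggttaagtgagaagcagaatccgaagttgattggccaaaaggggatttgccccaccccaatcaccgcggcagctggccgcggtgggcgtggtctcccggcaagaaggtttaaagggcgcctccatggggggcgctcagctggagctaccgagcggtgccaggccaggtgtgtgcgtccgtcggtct
ATF4: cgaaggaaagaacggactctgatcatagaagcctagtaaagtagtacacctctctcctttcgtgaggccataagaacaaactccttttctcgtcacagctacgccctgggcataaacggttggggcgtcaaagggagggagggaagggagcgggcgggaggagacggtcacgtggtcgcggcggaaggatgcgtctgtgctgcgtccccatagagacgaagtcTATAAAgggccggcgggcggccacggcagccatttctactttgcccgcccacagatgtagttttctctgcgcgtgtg

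SGI-110 acts on CpG methylation, and CpG pairs were therefore counted in the same windows. The 3 printed windows hold 25 (ASNS), 24 (CHAC1) and 24 (ATF4) CpG pairs, and the members' windows run from 3 (the first of the ATF5 windows) to 43 (the second of CEBPB), against a median of 14 over all windows. Methylation itself was not measured in these files.

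INHBE (chromosome 12, 57452323 to 57459280), which encodes a secreted activin subunit of the TGF-beta family, had the largest falls of the 10 genes with SGI-110 and with the combination. Its level was 5048 ± 514 with SGI-110, 16745 ± 1701 with dasatinib, 4764 ± 485 with the combination and 25629 ± 2603 with DMSO. Dasatinib thus lay between DMSO and the groups with SGI-110. The fall was 5.08-fold with SGI-110 (-2.34 ± 0.21, adjusted p = 3.24e-28), 1.53-fold with dasatinib (-0.61 ± 0.21, adjusted p = 0.0126) and 5.38-fold with the combination (-2.43 ± 0.21, adjusted p = 3.49e-30), in the authors' deposited table. Of the 11759 well measured genes 8 had a lower SGI-110 value than INHBE.

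**Figure D2:**
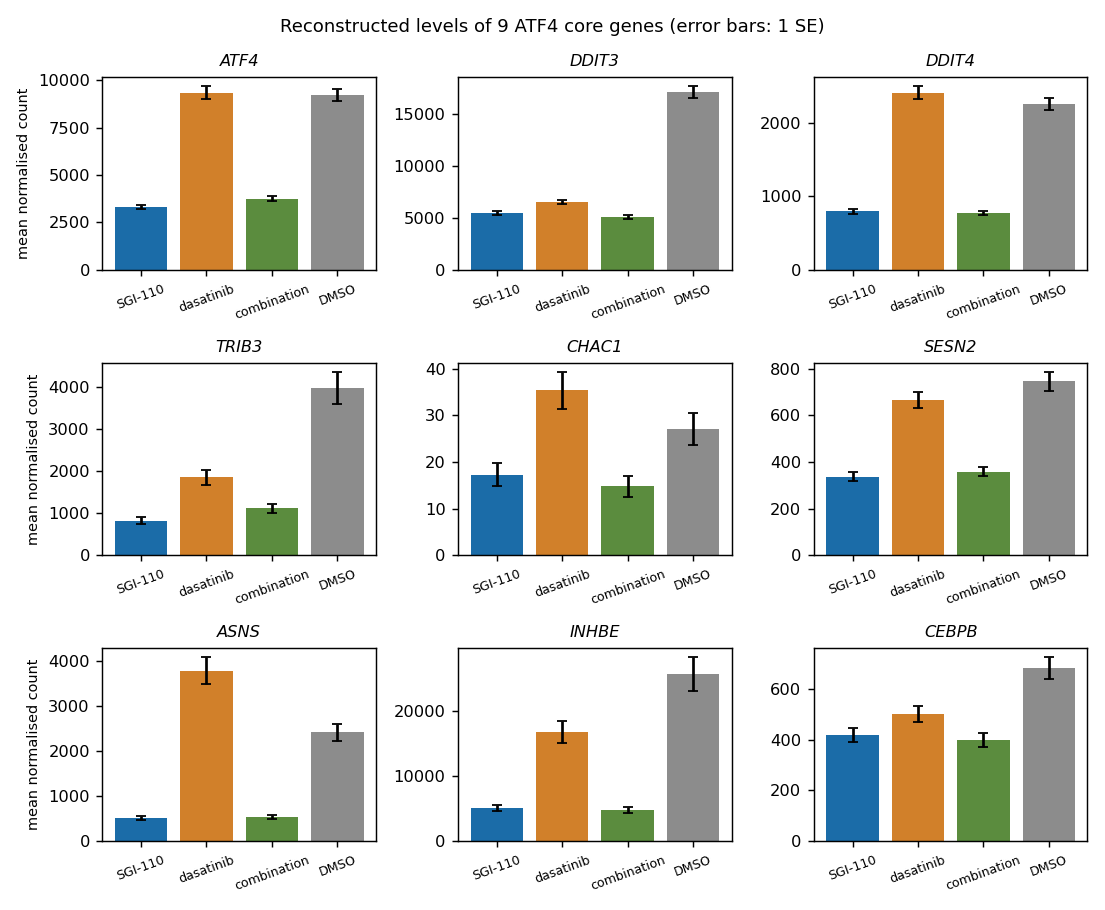
Reconstructed mean normalised count (vertical axis, linear, starting at 0, 1 panel per gene) with SGI-110, dasatinib, the combination and DMSO, with 1 standard error of the fit as bars (n = 3 libraries per treatment). ATF4, DDIT4 and SESN2 show 2 low groups, those with SGI-110, while DDIT3 is high with DMSO alone (17076) and ASNS is highest with dasatinib (3781).

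The members also differed in how far the fitted line accounts for their counts. The mean normalised count in the tables covers all 24 libraries, and the reconstructed levels cover the 12 of the fitted line, so the remaining 12 can be had by subtraction. INHBE and DDIT3 came almost wholly from the fitted line, with 96.0% and 95.7% of the counts. These genes lie near each other on chromosome 12, and whether their shares are separate observations was not tested. TRIB3 followed with 83.1%, CEBPB with 64.1% and ATF4 with 57.6%. SESN2 (46.0%), DDIT4 (40.7%) and ASNS (33.1%) had the larger part in the remaining 12 libraries. CHAC1 had 9.26% in the fitted line, a mean of 23.6 normalised counts there against 231.5 in the remaining 12 libraries. The values for CHAC1 above are thus those of the line where it is scarce, and the response of the remaining libraries was not measured in the tables.

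The fitted dispersion of the members was uneven. It is a single value per gene, solved from the standard errors and shared by all groups of the fit. It is thus not a spread observed among the replicates of a treatment, and how far libraries outside the fitted line shape it was not tested. Written as a coefficient of variation beyond counting noise, its median was 5.92% over well measured genes. DDIT3 (5.52%), DDIT4 (5.78%) and ATF4 (6.01%) lay close to that median and SESN2 stood at 8.63%. CEBPB (10.4%), CHAC1 (11.0%), ASNS (13.3%), TRIB3 (16.5%), INHBE (17.6%) and ATF5 (20.9%) had higher values than at least 94.3% of those genes. The wide interval of ATF5 and its high value come from the same standard errors and are not separate observations. The ATF5 value also comes from the solution whose routes differed by 26.4%, for which no level is given.

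The next question was what each drug added to the other. When dasatinib was added to SGI-110, none of the 10 genes was lower and 1 was higher, ATF4 (0.18 ± 0.07, adjusted p = 0.0467), in the authors' deposited table. Over all genes tested 14.2% were called higher in this comparison and 17.0% lower, and 23.7% and 22.2% of the well measured ones, so 1 of 10 is near the background. The ATF4 call ended when p-values were adjusted over every gene (adjusted p = 0.0606) and when fold changes were centred on well measured genes (0.103). When SGI-110 was added to dasatinib, 9 of the 10 genes fell and 1 (ATF5) rose, with a median of -1.08. Over all genes 16.5% were called lower and 26.6% higher (36.4% and 28.6% of the well measured ones) by this test, which was computed here from the deposited comparisons and takes the DMSO libraries out. ASNS was 7.23-fold lower (-2.85 ± 0.16, adjusted p = 3.49e-68), and 2 well measured genes had a lower value. DDIT4 (-1.64 ± 0.08, adjusted p = 1.35e-102), INHBE (-1.81 ± 0.21, adjusted p = 3.72e-17) and ATF4 (-1.32 ± 0.07, adjusted p = 5.12e-72) also fell, as did DDIT3 by the smaller step of 0.36 ± 0.07 (adjusted p = 3.12e-07), from Wald tests on values of the authors' deposited table. CEBPB had the smallest fall, -0.33 ± 0.13 (adjusted p = 0.0300), and its call ended under centring on well measured genes (adjusted p = 0.0686). The rise of ATF5 was 0.80 ± 0.25 (adjusted p = 0.00380) by the same test. With the DMSO variance kept in, the calls of ATF5 (adjusted p = 0.0726) and CEBPB (0.190) ended.

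Whether the response to dasatinib depended on SGI-110 was tested as the interaction, which is the change from dasatinib on top of SGI-110 minus its change on top of DMSO. It was higher for 3 of the 10 genes, lower for 1 and not past the threshold for 6, against 6.09% called higher and 8.49% called lower over all genes and 13.4% and 18.8% over the well measured ones. DDIT3 gave the clearest difference: the change with dasatinib was -0.12 ± 0.07 with SGI-110 present (adjusted p = 0.175 in the authors' deposited table) and -1.40 without it. The interaction was 1.28 ± 0.09 (Wald test, adjusted p = 4.17e-39). TRIB3 had a dasatinib value of 0.44 ± 0.20 with SGI-110 present (adjusted p = 0.0767 in the authors' deposited table) and -1.10 without it, an interaction of 1.54 ± 0.28 (adjusted p = 1.13e-06). ATF5 had 0.45 ± 0.25 with SGI-110 present (adjusted p = 0.170 in the authors' deposited table) and -0.67 without it, an interaction of 1.11 ± 0.35 (adjusted p = 0.0133).

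ASNS differed the other way. Its dasatinib value was 0.04 ± 0.16 with SGI-110 present (adjusted p = 0.908 in the authors' deposited table) and 0.65 without it, and the interaction of -0.61 ± 0.23 passed narrowly (adjusted p = 0.0492). It was lost under both centrings (adjusted p = 0.0756 and 0.0680). ATF4 (0.16 ± 0.10, adjusted p = 0.403, 95% interval -0.04 to 0.36) and DDIT4 (-0.14 ± 0.11, adjusted p = 0.540) did not pass, nor did SESN2, CHAC1, INHBE and CEBPB, with adjusted p from 0.213 (CEBPB) to 0.406 (CHAC1). The dasatinib effect without SGI-110 uses the DMSO libraries and the effect with SGI-110 does not. A DMSO group that stood apart in DDIT3, TRIB3 and ATF5 cannot be told apart from a loss of the dasatinib effect in the presence of SGI-110. In DDIT3 and TRIB3 DMSO was above every treated group. In ATF5 it differed past the threshold from dasatinib alone (adjusted p = 0.0261). The ATF5 values for SGI-110 (adjusted p = 0.314) and the combination (adjusted p = 0.709) did not pass, by the authors' deposited Wald test.

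**Figure D3:**
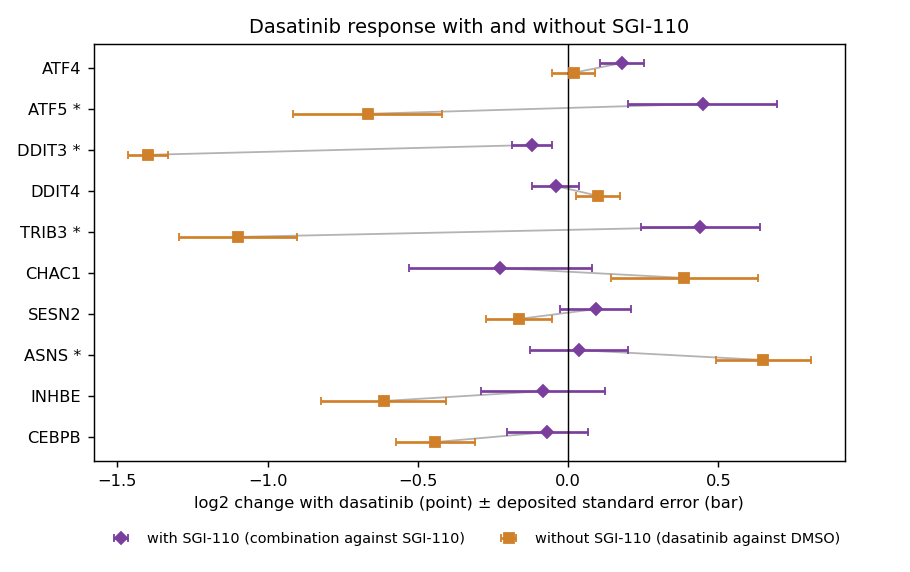
Log2 change with dasatinib (horizontal axis) of each ATF4 core gene in the presence of SGI-110 (diamonds, combination against SGI-110) and in its absence (squares, dasatinib against DMSO), with the deposited standard error as bars; asterisks mark genes past the threshold for the interaction. DDIT3 lies at -0.12 with SGI-110 and at -1.40 without it, and ASNS at 0.04 and 0.65.

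Related genes set the members in context. The 8 genes outside the set whose 3 log2 fold changes against DMSO lay closest to those of ATF4, among 11749 well measured genes, were IARS, SHMT2, DDR2, MRPL58, DHODH, NDUFA9, ATP5SL and ADORA1. Their Euclidean distances from ATF4 were 0.155 (IARS) to 0.217 (ADORA1) on the log2 scale over 3 treatments. IARS, the cytosolic isoleucyl-tRNA synthetase gene, stood at -1.49 ± 0.08 for SGI-110, -0.13 ± 0.08 for dasatinib and -1.28 ± 0.08 for the combination in the authors' deposited table. SHMT2, a mitochondrial serine enzyme gene, stood at -1.50 ± 0.09, -0.04 ± 0.09 and -1.16 ± 0.09 in the same order, also from the authors' deposited table.

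Other targets of ATF4 were counted in the same way. The background for this and the following lists is the share called over all genes: 17.1% lower and 30.4% higher with SGI-110 (34.9% and 32.6% of the well measured ones), and 13.2% lower and 17.8% higher with dasatinib (17.4% and 27.4%). With SGI-110 28 of 39 listed targets were lower and 6 higher, with a median of -1.02. With dasatinib 8 were lower and 9 higher, with a median of 0.02, near the background of the well measured genes. The cystine transporter gene SLC7A11 fell by 2.21 ± 0.22 with SGI-110 and rose by 1.09 ± 0.21 with dasatinib (adjusted p = 2.09e-06) by the authors' deposited table, the same pair of directions as ASNS. PPP1R15A, which encodes the GADD34 subunit of the eIF2 phosphatase, fell by 1.64 ± 0.10 with dasatinib (adjusted p = 6.28e-53), and NUPR1, a stress-induced chromatin protein gene, by 3.78 ± 0.47 (adjusted p = 5.01e-14) by the authors' deposited table. The interaction was higher for 6 of the 39 targets and lower for 6, against 13.4% and 18.8% of the well measured genes. Its largest called values were 2.90 ± 0.64 for NUPR1 (Wald test, adjusted p = 0.000122), 1.12 ± 0.15 for PPP1R15A (adjusted p = 3.20e-12) and 0.76 ± 0.20 for WARS (adjusted p = 0.00171). NUPR1 had a mean normalised count of only 21.5 in the authors' deposited table. The largest fold changes of the list with SGI-110 were those of FGF21 (lower), SLC6A9 and RAB39B (higher), whose standard errors of 0.82 to 1.26 log2 leave their sizes uncertain in the authors' deposited table. Among the bZIP relatives 8 of 17 were lower and 4 higher with SGI-110, not far from the 34.9% and 32.6% of the well measured genes. CEBPG, a C/EBP partner of ATF4, fell with SGI-110 (-1.52 ± 0.09, adjusted p = 3.20e-68) and stood at -0.17 ± 0.08 with dasatinib (adjusted p = 0.124), close to ATF4 itself, in the authors' deposited table. CEBPA (1.88 ± 0.22) and JDP2 (2.15 ± 0.39) rose with SGI-110 in the authors' deposited table. ATF3, a stress-induced bZIP repressor gene, stood at -0.02 ± 0.07 with SGI-110 (adjusted p = 0.818) and fell by 0.29 ± 0.07 with dasatinib (adjusted p = 0.000250) and by 0.59 ± 0.07 with the combination (adjusted p = 1.00e-15), per the authors' deposited table. Against SGI-110 alone the combination lowered ATF3 by 0.56 ± 0.07 (adjusted p = 3.42e-14), per the authors' deposited table.

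Genes that act on eIF2, the step upstream of ATF4, were counted next. They include PPP1R15A, which was also counted above as an ATF4 target. Several genes stand in more than 1 list, so the counts of the lists are not separate observations. Of 12 genes for eIF2 kinases, their regulators and the phosphatase 7 were lower and 2 higher with SGI-110 (median -0.35), against 34.9% and 32.6% of the well measured genes. With dasatinib 4 were lower and 2 higher (median -0.06), against 17.4% and 27.4%. GCN1, which activates the amino acid sensing kinase GCN2, fell by 0.79 ± 0.06 with SGI-110 and PPP1R15A by 0.67 ± 0.10, in the authors' deposited table. Of the closest relatives of the members 9 of 14 were higher and 1 (CEBPG) lower with SGI-110, with a median of 0.68, against 32.6% and 34.9% of the well measured genes. With dasatinib 6 of the 13 tested were higher and none lower, against 27.4% and 17.4%. SESN3 rose by 1.24 ± 0.13 with SGI-110 and by 1.11 ± 0.13 with dasatinib, while SESN2 fell or did not pass, in the authors' deposited table. TRIB2 rose by 0.71 ± 0.05 with dasatinib in the authors' deposited table. DDIT4L, INHBA and INHBB were higher with SGI-110, but their standard errors of 1.19 to 1.43 log2 in the authors' deposited table leave the size uncertain.

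The other branches of the unfolded protein response, run by ATF6 and by IRE1 with XBP1, were counted for comparison with DDIT3. Of 18 listed genes 15 were lower and none higher with dasatinib (median -0.54), against 13.2% of all genes and 17.4% of the well measured ones called lower. With SGI-110 15 were lower and 1 higher (median -0.55), against 17.1% and 34.9% called lower. On top of SGI-110 dasatinib lowered none and raised 4 of 18, against 22.2% and 23.7% of the well measured genes (17.0% and 14.2% of all genes tested). The 4 raised are thus near the share of the well measured genes. The interaction was higher for 15 of 18 and lower for none (median 0.66). Over all genes 6.09% were called higher and 8.49% lower, and 13.4% and 18.8% of the well measured ones. HSPA5, which encodes the chaperone BiP, had a reconstructed level of 12913 with SGI-110, 12105 with dasatinib, 13677 with the combination and 30743 with DMSO. Its dasatinib value was -1.34 ± 0.05 and its interaction 1.43 ± 0.07 (Wald test, adjusted p = 1.77e-80), from the authors' deposited table. SEL1L (interaction 1.13 ± 0.16, adjusted p = 5.91e-11) and HYOU1 (1.07 ± 0.10, adjusted p = 2.52e-23), which serve degradation and folding in that compartment, had the same direction, by values of the authors' deposited table. As for DDIT3, these differences rest on 1 shared DMSO group, and whether that group stood apart was not tested.

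**Figure D4:**
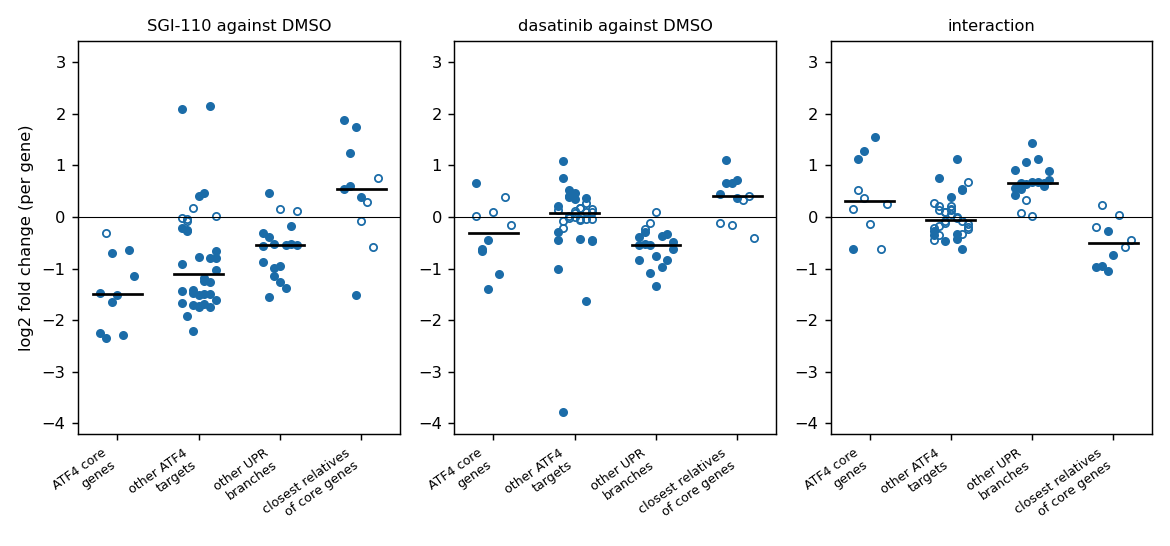
Log2 fold change per gene (vertical axis) for SGI-110 against DMSO, dasatinib against DMSO and the interaction, in 4 gene lists; filled points passed the threshold, open points did not, and bars are list medians. Genes with a standard error of at least 0.5 log2 are left out (3 to 5 of the 39 other ATF4 targets and 3 or 4 of the 14 relatives). In the other branches of the unfolded protein response (UPR) 15 of 18 genes are lower with dasatinib and 15 have a higher interaction, while the medians of the other ATF4 targets lie near 0 in both.

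DDIT4 and SESN2 also belong to other pathways, whose listed genes were counted beside them, and the part of those pathways in the values of DDIT4 and SESN2 was not tested. Targets of p53, which include SESN genes, were higher in 12 of 20 and lower in 3 with SGI-110 (median 0.54), against 32.6% and 34.9% of the well measured genes. With dasatinib 7 were higher and 4 lower, near the 27.4% and 17.4% of the well measured genes. DDB2, a DNA damage recognition gene, rose by 1.79 ± 0.11 and TP53INP1 by 1.47 ± 0.09 with SGI-110 in the authors' deposited table. The 3 lower p53 targets were GDF15 (-1.19 ± 0.11), BBC3 (-0.61 ± 0.15) and CCNG1 (-0.58 ± 0.07), per the authors' deposited table. Hypoxia response genes, a class to which DDIT4 belongs, were higher in 7 of 15 and lower in 3 with SGI-110 (median 0.68), against 32.6% and 34.9% of the well measured genes. NDRG1 rose by 2.74 ± 0.13 and ADM by 3.05 ± 0.20 with SGI-110 in the authors' deposited table. The 3 lower hypoxia genes were VEGFA (-1.44 ± 0.07), PDK1 (-0.79 ± 0.08) and PGK1 (-0.12 ± 0.05), per the authors' deposited table. Genes of the mTORC1 pathway were lower in 10 of 24 and higher in 6 with SGI-110 (median -0.17), near the 34.9% and 32.6% of the well measured genes. EIF4EBP1, a translation repressor gene and itself an ATF4 target, fell by 1.62 ± 0.15, and GATSL2 (CASTOR2), a relative of the arginine sensor of the pathway, rose by 1.30 ± 0.19 (adjusted p = 1.18e-10), per the authors' deposited table.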

How the data were processed

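Stranded, poly(A)-selected libraries of 75-base paired reads were made, per the labels' protocols. DESeq2 1.16.1, DESeq, featureCounts 1.5.1, HISAT2 2.1.0, Trim Galore 0.4.2 and the GRCh38 build are named in the submitters' processing notes. Neither their roles nor the model formula or strand setting is given in the sources used here. Per the file headers, the authors deposited for each comparison a signal (baseMean, the mean normalised count over all 24 libraries), a standard error on the log2 scale, a score (the Wald statistic) and the p-value with its Benjamini-Hochberg adjusted p. The log2 fold change was computed here as statistic times standard error.

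The 3 contrasts among the combination, SGI-110 and DMSO closed within 0.00152 log2. The largest standard error was 6.01, against 6.01 expected for 3 libraries per treatment and 4.25 for 6 in a fit of 24. The combination against dasatinib and the interaction were computed with two-sided Wald tests and Benjamini-Hochberg adjustment over all 29639 genes (scipy 1.17.1). Simulated data were drawn with the same group variances that these tests use. They could therefore check the computation only, and not those variances or the fit to real counts. Levels rest on 1408 calibration genes, whose 99th percentile set the scale; the median residual was 0.0622%, and 90.3% of genes with a mean normalised count of 100 or more (well measured genes) passed the 25% limit between both routes, of which the second uses dasatinib.

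Members and lists were chosen with earlier results of these data known, so list counts are descriptions. Genes named are all members, the 8 genes nearest to ATF4 and genes taken from the 3 largest called changes per list and comparison. Further values (MARS, ATF3, CEBPG with dasatinib, SLC7A11 and SESN3 with SGI-110, the lower p53 and hypoxia genes) were named for overlap or role after their values were seen. List symbols were matched through older names, and only CEBPE of the listed genes was not found. Positions are from GENCODE 29.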

Additional observations from a re-analysis of the deposited data

Results flagged for a closer look

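The change with dasatinib differed with and without SGI-110 (test of the interaction, adjusted p under 0.05) for 4 of the 10 core genes. The interaction was higher for 3 and lower for 1, against 13.4% and 18.8% of the well measured genes (6.09% and 8.49% of all genes). The difference was 1.28 log2 for DDIT3, 1.54 for TRIB3, 1.11 for ATF5 and -0.61 for ASNS. It was also 1.43 for HSPA5, 1.13 for SEL1L and 1.07 for HYOU1, which were named as the listed genes of the other unfolded protein response branches with the largest interactions. Among the other ATF4 targets the largest called were 2.90 for NUPR1, 1.12 for PPP1R15A and 0.76 for WARS, with 6 of 39 higher and 6 lower. In the absence of SGI-110 these values rest on the DMSO libraries, and whether that group stood apart was not tested.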

How the results depend on the processing

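No paired analysis was possible because the tables hold comparisons and no value per library, and for the same reason no library could be left out. Of 74 recomputed counts of members past the threshold, 58 stayed within 1.5 times the count given, and no value past the threshold changed its sign among 268 other recomputed values. The 58 include counts of 0 that a stricter threshold could not raise. For the combination against dasatinib and the interaction, adjusting over every gene repeats the main test, so those counts could not move either. A sign could change only under the centrings. These totals therefore overstate how much was put to the test. For dasatinib against DMSO the 5 lower genes became 3 at an adjusted p under 0.01, 2 at a minimum change of 1 log2 (with 0 in place of 1 higher) and 2 when centred on all genes (with DDIT4 added to ASNS, 2 higher). That centring subtracts a median of -0.12 for dasatinib, which raises its values, and of 0.22 for SGI-110, which lowers them, and ATF5, INHBE and CEBPB lost their dasatinib calls under it (adjusted p 0.0607 to 0.102). For the combination against SGI-110 the 1 higher gene, ATF4, became 0 at 0.01, at 1 log2, when adjusted over every gene and when centred on well measured genes. For the combination against dasatinib a minimum of 1 log2 left 5 lower and 0 higher genes, and keeping the DMSO variance in left 0 higher. The 1 lower interaction, ASNS, became 0 at 0.01, at 1 log2 and under both centrings. Scaling the levels at the 98th percentile or at the largest calibration gene, chosen after seeing the data, gave shares of 95.3% to 96.5% for INHBE. Depth per library is unknown and limits CHAC1 most, at 14.8 to 35.4 normalised counts.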
